A study of Sus scrofa with 12 samples.

Results

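The genes described here carry dietary fat through the absorptive cell of the small intestine, from uptake and intracellular transport to the assembly of chylomicrons. They were chosen by name from a list of 10 genes (APOA1, APOA4, APOC3, APOB, MTTP, FABP1, FABP2, CD36, DGAT1 and DGAT2), and loci that share a gene name were summed. Of the 10 names, 8 are in the deposited table of 17049 different gene names, and APOB and DGAT2 were not analysed here under those names. The values are RNA-seq levels in whole jejunum from 12 piglets in 4 groups of 3, which the study's records call biological replicates. Sucking piglets of control sows (W_Con) were 21 days old, and weaned piglets of control sows (PW_Con) were 28 days old and had been weaned for 7 days. Sows of the remaining groups, W_Res at 21 days and PW_Res at 28 days, ate the basal diet with 300 mg/kg resveratrol, a plant polyphenol, from early gestation through lactation. Piglets of W_Res and PW_Res are called resveratrol litters below, and only their sows are described as receiving it. The records describe sows mated with pooled Landrace semen, cross-fostering within each diet, and piglets that stayed in the nursing pens when the sows were removed. The paper, which uses the 6 control libraries, instead gives Yorkshire × Duroc litters and a move to a nursing room, and its account of the animals gives no resveratrol diet. It describes 1 piglet from each litter at each age, so that control piglets of both ages may share a litter, and which of them do is not given in the sources used here. Age and weaning moved together in every comparison, so that they cannot be told apart.

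After a meal, long-chain fatty acids and monoglycerides enter the enterocyte and are held in solution by fatty acid-binding proteins. At the endoplasmic reticulum they are joined again into triglyceride, and the microsomal transfer protein loads that triglyceride onto apolipoprotein B to start a chylomicron. Apolipoproteins A-I, A-IV and C-III are carried on the particle, which leaves the cell for the lymph. Milk is rich in fat, and the jejunum is a main place of its absorption in the sucking animal.

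Levels are given as FPKM, the fragments mapped to a gene divided by its exon length and by the mapped reads of the library, a scale on which genes of different length can be compared. Such values do not show how many reads a gene had. Across genes, Pearson's r between replicates of a group was 0.881 to 0.961, and genes are not independent replicates. The 8 genes together held between 0.843% (PW_Con replicate 3) and 9.65% (W_Con replicate 2) of the summed FPKM of all named loci in a library. The lowest level of 6 of the 8 genes was in PW_Con replicate 3, and the highest level of 4 of them was in W_Con replicate 2. Libraries also differed within groups in markers of gut position and of the muscle wall, which are given beside the results that they move with. In bulk tissue, fewer cells of a type and less RNA per cell cannot be told apart.

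**Figure D1:**
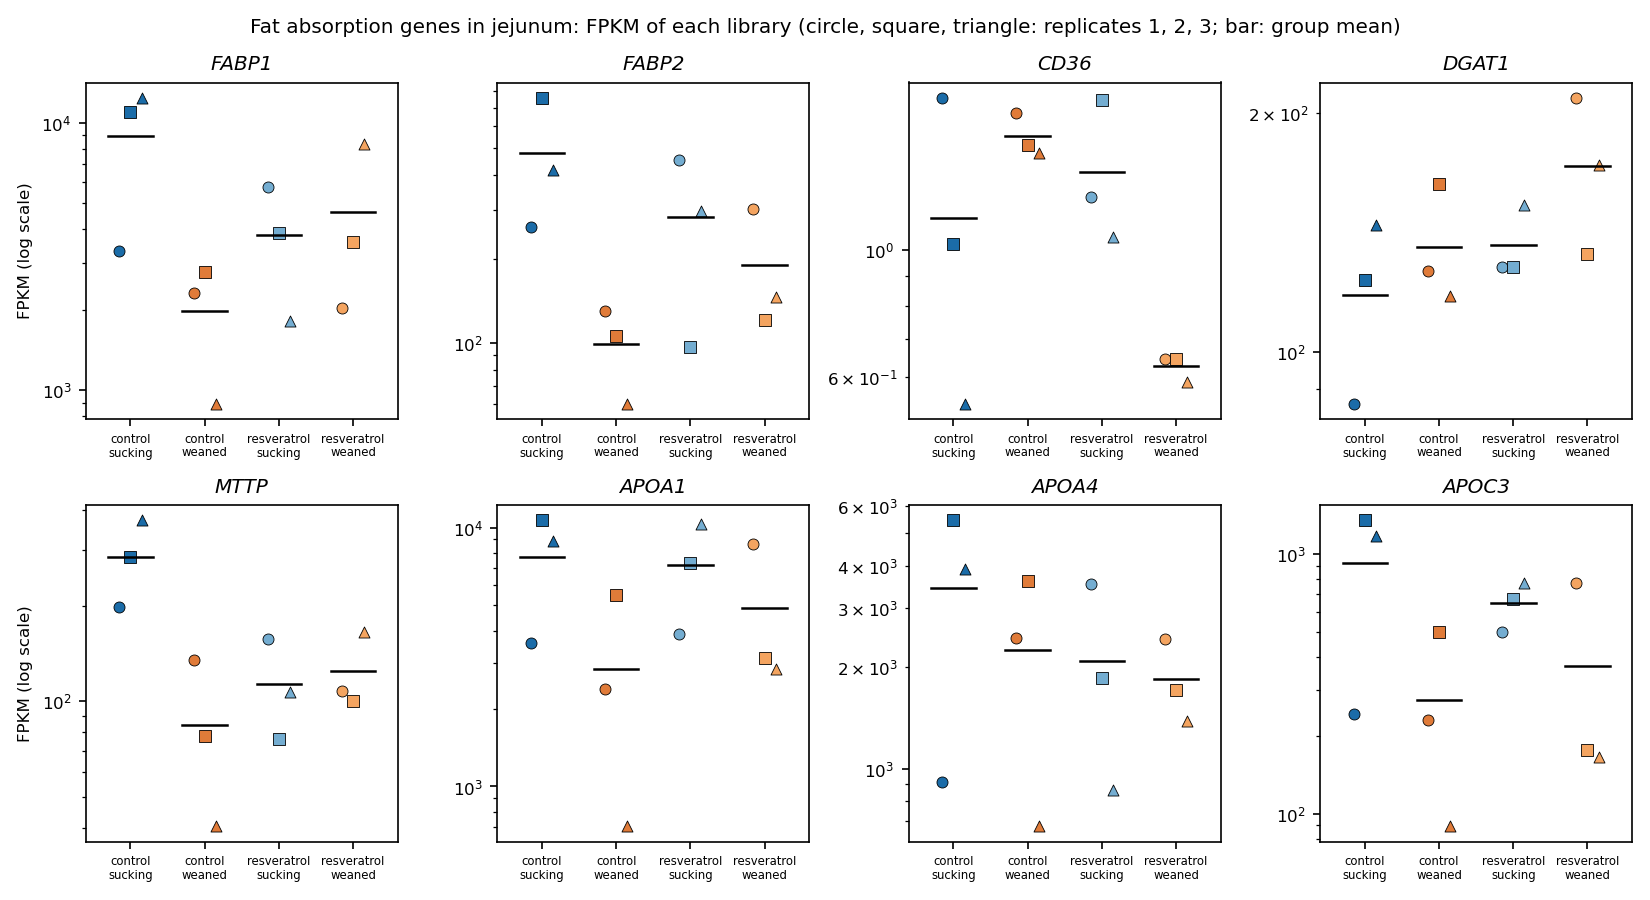
FPKM of the 8 genes in each of the 12 libraries, on log axes that differ between panels. Symbols are the libraries (circle, square and triangle for replicates 1, 2 and 3), and bars are group means (n = 3). The W_Con libraries of FABP1, FABP2 and MTTP lie above all PW_Con libraries, while CD36 stays between 0.539 and 1.85 FPKM in all 12.

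Of the binding proteins among the 8 genes, FABP1 was the more abundant. FABP1 (liver fatty acid-binding protein) binds fatty acids and other lipids in the cytosol of enterocytes and hepatocytes, and it ranked between 1 and 34 among all gene names in the 12 libraries. Its level in control litters was 3311, 11019 and 12407 FPKM before weaning (W_Con) and 2306, 2762 and 891 FPKM after it (PW_Con). The groups did not overlap, although W_Con replicate 1 lay close to the weaned libraries. In resveratrol litters it was 5775, 3863 and 1809 FPKM before weaning and 2031, 3577 and 8325 FPKM after it, and these groups overlapped throughout. Group means ran from 8912 ± 4900 FPKM in W_Con through 4644 ± 3280 in PW_Res and 3816 ± 1983 in W_Res to 1986 ± 976 in PW_Con (SD, n = 3 each). Each step between neighbours in that order was smaller than the larger of the 2 SDs.

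FABP2, the intestinal fatty acid-binding protein, is made almost only by enterocytes. Its FPKM was 260, 759 and 419 in W_Con and 131, 106 and 60.3 in PW_Con, with every sucking library above every weaned library. In W_Res it was at 454, 96.2 and 299 FPKM and in PW_Res at 303, 121 and 146 FPKM. The lowest and the highest of these 6 libraries were both from sucking piglets, W_Res replicates 2 and 1. The order of group means was W_Con (479 ± 255 FPKM), W_Res (283 ± 180), PW_Res (190 ± 98.8) and PW_Con (98.9 ± 35.6; SD, n = 3 each). FABP1 was 6.06 to 57.0 times as abundant as FABP2, and both ends of that range were in resveratrol litters.

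CD36 is a membrane receptor that binds long-chain fatty acids, and DGAT1 adds the last acyl group of triglyceride. At the 1 locus with its name, CD36 was low, at 1.85, 1.03 and 0.539 FPKM in W_Con and 1.74, 1.53 and 1.48 FPKM in PW_Con. Loci without a name, 42.8% of all loci, were not used, and whether any of them holds CD36 reads was not examined. In W_Res it was at 1.24, 1.83 and 1.05 FPKM and in PW_Res at 0.646, 0.646 and 0.588 FPKM. Its libraries from control litters overlapped, whereas in resveratrol litters the weaned libraries lay below all sucking libraries. Its rank among all gene names was 9568 at best. DGAT1 varied least of the 8 genes, with its highest library 2.43 times its lowest. It was at 86.1, 123 and 145 FPKM in W_Con, 127, 163 and 118 in PW_Con, 128, 128 and 153 in W_Res, and 209, 133 and 172 in PW_Res. The DGAT1 groups overlapped at both ages and in both litter sets. Of the DGAT1 level, 83.7% came from a single locus and 16.3% from another with the same name.

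MTTP is the large subunit of the microsomal triglyceride transfer protein, without which no chylomicron is formed. In control litters it was at 198, 285 and 371 FPKM in sucking piglets and at 135, 78.0 and 40.5 FPKM in weaned piglets, with no overlap. The other litters gave 157, 76.4 and 107 FPKM at 21 days and 108, 101 and 166 FPKM at 28 days. All W_Res libraries lay below all W_Con libraries, and 2 of the 3 were inside the range of PW_Con. Mean MTTP levels were 284 ± 86.4 FPKM in W_Con, 125 ± 35.6 in PW_Res, 113 ± 40.4 in W_Res and 84.4 ± 47.4 in PW_Con (SD, n = 3 each). The gap between W_Con and the next group exceeded both SDs, and the steps between the 3 lower groups were smaller than their SDs.

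Its partner APOB, the structural protein of the particle, was not matched by name. A pair of loci named only by an Ensembl identifier that RefSeq pairs with APOB (ENSSSCG00000008595) summed to between 0.363 FPKM (PW_Con replicate 3) and 6.85 FPKM (W_Con replicate 3). These loci are given apart and entered no count of the 8 genes. Loci without a name were not searched for APOB, so that its level may be understated.

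The 3 apolipoproteins carried on the particle are encoded next to each other: in the pig RefSeq annotation (Sscrofa11.1) the genes follow in the order APOA4, APOC3, APOA1. APOA1, the main protein of high-density lipoprotein and a coat protein of new chylomicrons, reached rank 1 of all gene names. Its FPKM was 3586, 10667 and 8860 in W_Con and 2376, 5483 and 702 in PW_Con, and these groups overlapped because W_Con replicate 1 lay below PW_Con replicate 2. It was at 3866, 7310 and 10358 FPKM in W_Res and at 8670, 3138 and 2843 FPKM in PW_Res. PW_Res replicate 1 stood within the sucking range and the other 2 weaned libraries below it. The means were 7704 ± 3679 FPKM in W_Con, 7178 ± 3248 in W_Res, 4883 ± 3282 in PW_Res and 2853 ± 2426 in PW_Con (SD, n = 3 each), with each step smaller than the SDs.

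APOA4, which is made in quantity by the small intestine during fat absorption, was at 916, 5451 and 3904 FPKM in W_Con and at 2445, 3610 and 675 FPKM in PW_Con. In resveratrol litters it was at 3525, 1855 and 864 FPKM in sucking piglets and at 2425, 1714 and 1386 FPKM in weaned piglets. All 4 groups overlapped. APOC3, an inhibitor of the clearance of triglyceride-rich particles, was at 243, 1352 and 1176 FPKM in W_Con and at 230, 502 and 89.3 FPKM in PW_Con. It was at 502, 673 and 774 FPKM in W_Res and at 772, 176 and 165 FPKM in PW_Res. W_Con replicate 1 and PW_Res replicate 1 each stood apart from the other 2 APOC3 libraries of their groups, the first low and the second high.

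The first comparison asked what differed between weaned and sucking piglets of control sows. After weaning, the levels of both fatty acid-binding proteins and of MTTP lay below all sucking libraries, those of APOA1 and APOC3 were lower on average, and DGAT1, CD36 and APOA4 did not differ beyond their spread. In limma on log2(FPKM + 1), a gene was counted at the study's standard, which asks for P under 0.05 before adjustment and for an estimate beyond 1 or -1 on the log2 scale. The standard was met by 5 of the 8 genes, all lower in weaned piglets, where 1.74% of all 12886 gene names tested met it in that direction. The log2 fold change was -2.20 for FABP2 (standard error 0.58, adjusted p = 0.127 from limma), or 4.59 times lower. It was -2.11 for FABP1 (standard error 0.68, adjusted p = 0.182 from limma) and -1.86 for MTTP (0.42, adjusted p = 0.0950 from limma). For these 3 the groups did not overlap, and an exact permutation test of 3 libraries against 3 then gives its smallest two-sided p, 0.1. Over all gene names, 12.4% were lower in weaned piglets without overlap.

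APOA1 and APOC3 met the standard with overlapping groups and near its P limit. Their log2 fold changes were both -1.74, with standard errors of 0.73 and 0.79 (adjusted p = 0.292 and 0.323 from limma). APOA1 no longer met it in 8 of the 24 alternatives run and APOC3 in 17. Leaving out W_Con replicate 2, W_Con replicate 3, PW_Con replicate 1 or PW_Con replicate 3 moved APOA1 to -1.43, -1.56, -1.83 and -0.95 and APOC3 to -1.29, -1.39, -1.78 and -1.10, and both then missed the standard. APOC3 also missed it, at an unmoved -1.74, when any W_Res library or PW_Res replicate 2 or 3 was left out. APOA4 (-0.57), CD36 (0.32) and DGAT1 (0.22) differed by less than the spread between piglets. The median over the 8 genes was -1.74 and that of all gene names tested -0.01. None of the 8 had a Benjamini-Hochberg adjusted p under 0.05 in limma (5 had P under 0.05 before adjustment), nor had any of the 12886 gene names (0% after and 15.3% before adjustment).

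**Figure D2:**
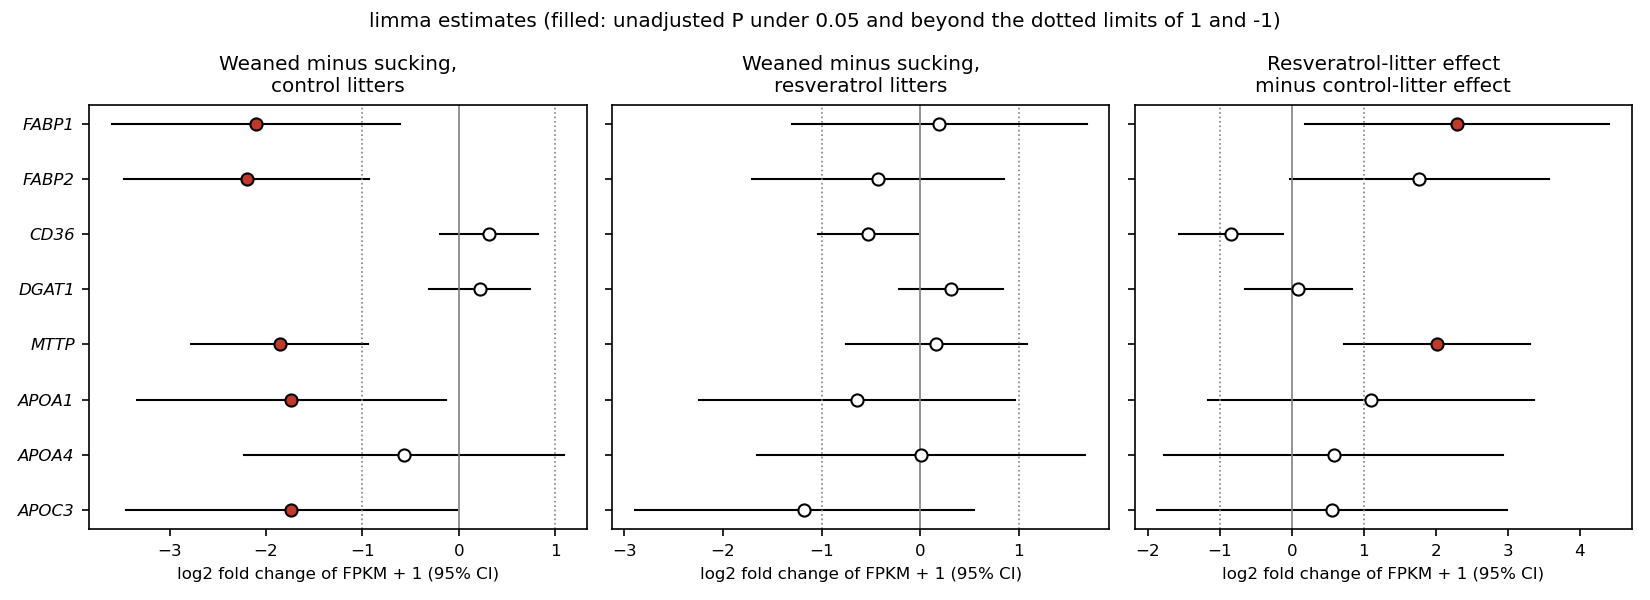
limma log2 fold changes of FPKM + 1 with 95% confidence intervals for the 8 genes. Panels show weaned minus sucking piglets in control litters, the same in resveratrol litters, and the second effect minus the first. Filled points met the study's standard: 5 genes in the first panel, 0 in the second, and FABP1 (2.30) and MTTP (2.02) in the third.

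Control litters also differed by age in genes listed as markers of gut position, which were written as lists without regard to the 8 genes. The paper reports several of them as responses to weaning in these control libraries. FABP6, SLC51A, NR1H4 and SLC10A2 (ENSSSCG00000026317) of the distal list were increased there, and S100G and ENSSSCG00000027157 of the proximal list were decreased. Gut position and a response to weaning cannot be told apart in these genes. FABP6, the ileal bile acid-binding protein, was at 8055, 1231 and 9.10 FPKM in W_Con and at 9621, 8791 and 6518 FPKM in PW_Con. The summed distal markers (6 of 7 in the table) were at 205 to 8834 FPKM in W_Con and 7098 to 10510.4 FPKM in PW_Con. Most of the highest W_Con sum was FABP6 (8055 of 8834 FPKM, replicate 1). The summed proximal markers (6 of 7) were at 183 to 2872 FPKM in W_Con and, without overlap, at 47.8 to 92.7 FPKM in PW_Con, and 2 of them met the standard, S100G (-3.31) and SLC40A1 (-1.92; listed as ENSSSCG00000027157). All of the 8 genes but CD36 had their lowest W_Con level in replicate 1, the library with the highest distal sum, where CD36 was at its highest. With the distal score as a covariate, chosen after the data were seen, the 5 genes met the standard in control litters, and the log2 fold change of FABP1 was -1.44. With the smooth muscle score instead, also chosen afterwards, APOC3 (-1.76) missed the standard by P. The proximal markers, whose highest W_Con sum was mostly S100G (2715 of 2872 FPKM, replicate 3), were not used as a covariate. All 6 smooth muscle markers tested had an estimate above 0 (median 0.43) and 7 of 9 villus markers one below it, with 0 past the standard in either list, and of the lymphocyte markers (4 above 0 and 4 below) CD79B, a B cell gene, was higher past it (2.05). The part of the proximal, villus and lymphocyte markers in these values was not tested.

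The same comparison in resveratrol litters gave 0 of the 8 genes past the standard, where 4.94% of gene names met it in either direction. That share stands for 636 gene names, which became 1101 without W_Res replicate 1 and 385 without W_Res replicate 2. By limma, P was under 0.05 for 1 of the 8 genes before adjustment and for 0 after it (17.6% and 0% of gene names). That gene was CD36, at -0.53 (standard error 0.23, adjusted p = 0.267 from limma), with weaned libraries below all sucking libraries. Of all gene names, 17.7% were lower without overlap in these litters. APOC3 had the lowest estimate, -1.18 (95% confidence interval -2.90 to 0.54), and of the alternatives run only the one without PW_Res replicate 1 (-1.90) took it past the standard. The others were APOA1 at -0.64, FABP2 at -0.43, APOA4 at 0.01, MTTP at 0.16, FABP1 at 0.19 and DGAT1 at 0.31. The median over the 8 genes was -0.21 and that of all gene names -0.15. Here 5 of the 6 smooth muscle markers tested were lower in weaned piglets and past the standard. With the smooth muscle score as a covariate, chosen after the data were seen, CD36 was at -0.13 with P over 0.05, and MTTP (-0.43) and FABP1 (-0.18) were below 0. The median of all gene names moved to 0.01 with median-of-ratios rescaling, so that values of this size are close to the shift between libraries.

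Whether weaning acted differently in the 2 litter sets was tested as the difference of the 2 effects. MTTP and FABP1 met the standard, both with a higher estimate in resveratrol litters, where 1.81% of gene names did so in that direction and 7.76% in either. The difference was 2.02 for MTTP (standard error 0.59, adjusted p = 0.251 from limma) and 2.30 for FABP1 (standard error 0.97, adjusted p = 0.331 from limma). For FABP2 it was 1.77 (95% confidence interval -0.03 to 3.57). CD36 differed in the other direction, by -0.85 (limma adjusted p = 0.305), which is within the fold limit. For APOA1 (1.10), APOA4 (0.58), APOC3 (0.56) and DGAT1 (0.09) the difference was smaller than its standard error or close to it, with intervals as wide as -1.87 to 2.99 for APOC3. By limma, P was under 0.05 for 3 of the 8 genes before adjustment and for 0 after it (13.7% and 0% of gene names). MTTP met the standard with each library left out in turn and missed it with the Ballgown-type model, a linear model per gene with a library size covariate and no shared variance (1.27). FABP1 missed it with no filter (2.30), quantile normalization (2.12) and the Ballgown-type model (1.37), all by P. It also missed the P limit without W_Con replicate 2 (2.04), W_Con replicate 3 (1.95), W_Res replicate 3 (1.84), PW_Con replicate 3 (1.80), PW_Res replicate 2 (2.37) or PW_Res replicate 3 (1.76). FABP2 met the standard without W_Con replicate 1 (2.14), W_Res replicate 1 (2.24), PW_Con replicate 1 (2.00) or PW_Res replicate 2 (2.04), with median-of-ratios rescaling (1.97) and with the distal covariate (2.01). CD36 met it without W_Con replicate 1 (-1.08) and with a pseudocount of 0.1 (-1.57).

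Markers of the muscle wall moved with this difference. Summed smooth muscle markers (6 of 7 in the table) were at 1793, 3929 and 658 FPKM in W_Res, above the 152 to 635 FPKM of W_Con, the 414 to 562 FPKM of PW_Con and the 202 to 629 FPKM of PW_Res. In W_Res, MTTP and FABP2 were lowest in the library with the highest smooth muscle sum, replicate 2, and FABP1 was lowest in replicate 3, the library with the lowest sum. Villus enterocyte markers (9 of 12) summed to 2513, 1532 and 5027 FPKM in W_Res and to 4054 to 5507 FPKM in W_Con. With the smooth muscle score as a covariate, chosen after the data were seen, the difference was 1.34 for MTTP and 1.87 for FABP1, and neither met the standard. Of the proximal markers, S100G (3.97) and SLC46A1 (2.25) met the standard for the same difference, as did the villus marker KRT20 (1.17). All 6 proximal markers had an estimate above 0, and of the 9 villus markers 7 were above 0 and 2 below. Of 8 lymphocyte markers, 4 above 0 and 4 below, 1 was lower past it. The only adipocyte marker tested, the droplet gene CIDEC, was higher past it (1.35). All 3 endothelial markers had an estimate below 0 (median -0.71), with 0 past the standard. The part of these markers in the difference was not tested. The distal sum was uneven, at 25396 FPKM in PW_Res replicate 1 and 409 and 341 FPKM in replicates 2 and 3.

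**Figure D3:**
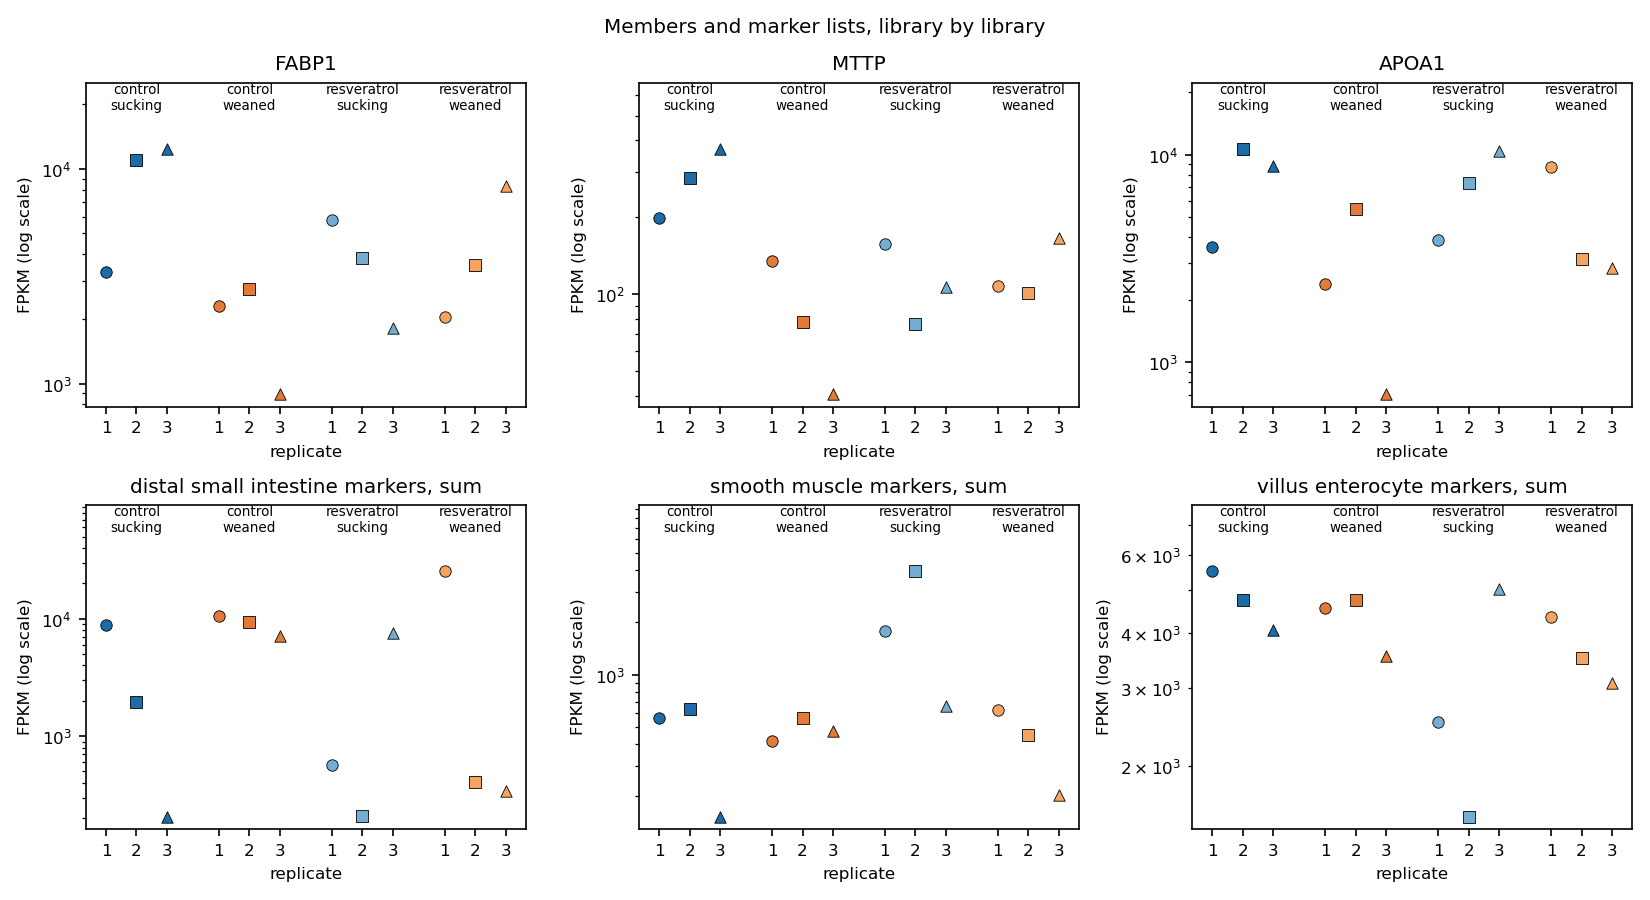
FABP1, MTTP and APOA1 (upper panels) and the summed distal, smooth muscle and villus enterocyte markers (lower panels) in the 12 libraries, as FPKM on log axes. Circles, squares and triangles are replicates 1, 2 and 3. The smooth muscle sum is highest in W_Res replicate 2 (3929 FPKM), and the distal sum spans 205 to 25396 FPKM, within groups as well as between them.

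Over both litter sets together, the mean effect of weaning met the standard for 3 of the 8 genes, all lower, where 0.683% of gene names met it in that direction. APOC3 was at -1.46 (adjusted p = 0.211 from limma), FABP2 at -1.31 (adjusted p = 0.151 from limma) and APOA1 at -1.19 (adjusted p = 0.245 from limma). MTTP (-0.85) was inside the fold limit, and FABP1 (-0.96) missed both limits. All 6 proximal markers (median -0.81, with SLC40A1 at -1.33 past the standard) and all 6 smooth muscle markers (median -0.90, 0 past it) also had an estimate below 0, and the part of the proximal markers was not tested. An exact permutation test within litter sets (400 arrangements, two-sided) gave p = 0.045 for APOC3, 0.05 for FABP2, 0.075 for APOA1, 0.105 for MTTP, 0.185 for FABP1 and 0.14 to 0.625 for the other 3. In limma, 10 of all gene names (0.0776%) had an adjusted p under 0.05, and 0 of the 8 genes were among them. That count over all gene names was 0 with no trend, a replicate block, a pseudocount of 0.1, the Ballgown-type model or the smooth muscle covariate, 205 with median-of-ratios rescaling, and 0 (without PW_Con replicate 1, PW_Res replicate 2 or PW_Res replicate 3) to 179 (without W_Res replicate 1) with a library left out. Before adjustment, 4 of the 8 had P under 0.05, as had 19.0% of gene names. Only FABP2 met the standard here in every alternative run but 1, the linear model of the Ballgown type (-1.64, with P just over 0.05). APOA1 missed it in 14 of the 23 alternatives and APOC3 in 7. Both missed it without W_Con replicate 2 (-1.04 and -1.24), W_Con replicate 3 (-1.10 and -1.29), PW_Con replicate 3 (-0.79 and -1.14), PW_Res replicate 2 (-1.08 and -1.29) or PW_Res replicate 3 (-1.04 and -1.27). APOA1 alone also missed it without W_Res replicate 2 (-1.15), W_Res replicate 3 (-1.03) or PW_Con replicate 1 (-1.23). MTTP met it with the Ballgown-type model (-1.27), with the smooth muscle covariate (-1.09) and without PW_Con replicate 1 (-1.06), and FABP1 without W_Con replicate 1 (-1.26), W_Res replicate 3 (-1.19) or PW_Res replicate 3 (-1.23).

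The last 2 comparisons set resveratrol against control litters at 1 age. At 21 days MTTP was 2.52 times lower in resveratrol litters (log2 fold change -1.33 ± 0.42, SE; limma adjusted p = 0.149). No other of the 8 genes was past the standard, where 1.44% of gene names met it in the lower direction, and the MTTP groups did not overlap, as for 7.26% of gene names. All 6 smooth muscle markers tested had an estimate above 0 (median 2.45), 5 of them past the standard. With their score as a covariate the MTTP value was -0.74, inside the fold limit. At this age 4 of the 8 lymphocyte markers had an estimate below 0 and 4 above it, and the T cell markers CD3E (-1.78), CD3D (-1.97) and CD2 (-1.37) were lower past the standard. Of the 9 villus markers 8 were below 0, and SLC15A1 (-1.56) alone was past the standard. All 3 endothelial markers were above 0, with 0 past it. The part of these markers was not tested. FABP1 (-1.16) and FABP2 (-0.88) were lower by less than the limma test could separate from the spread, and APOA1 (-0.07), APOC3 (-0.19), CD36 (0.18) and DGAT1 (0.23) lay near 0. APOA4 was at -0.60 (95% confidence interval -2.26 to 1.07). FABP1 met the standard without W_Con replicate 1 (-1.77) and was at -0.70 without W_Res replicate 3. FABP2 met it without W_Res replicate 1 (-1.36) and was at -0.24 without W_Res replicate 2. APOA4 ranged from -1.37 (without W_Con replicate 1) to -0.07 (without W_Res replicate 3). At 28 days 0 of the 8 genes met the standard, as did 1.55% of gene names. CD36 was lower at -0.67 (standard error 0.23, adjusted p = 0.559 from limma) without overlap, as were 11.8% of gene names, and met the fold limit with a pseudocount of 0.1 (-1.21). FABP1 was at 1.14 (95% confidence interval -0.36 to 2.63) and APOA1 at 1.03 (-0.58 to 2.63). The rest were FABP2 at 0.89, MTTP at 0.68, APOC3 at 0.37, DGAT1 at 0.33 and APOA4 at -0.02, with intervals that include 0. FABP1 met the standard without PW_Res replicate 1 (1.61) and was at 0.60 without PW_Res replicate 3. With the distal covariate it was at 0.48. At 28 days 5 of the 6 distal markers had an estimate below 0 (median -1.06), with 0 past the standard. APOA1 met it without PW_Con replicate 2 (1.72) and MTTP without PW_Con replicate 1 (1.10), and without PW_Con replicate 3 both were at 0.24. The proximal markers S100G (3.00), CYBRD1 (1.94) and SLC46A1 (1.61) were higher in resveratrol litters at 28 days and past the standard, and all 6 of that list had an estimate above 0. All 8 lymphocyte markers had an estimate below 0 with 0 past the standard. Of the 6 crypt markers tested, 4 were below 0 and 2 above it (median -0.19), and TOP2A (-1.11) alone was past the standard. The part of these markers was not tested. In each of these comparisons limma gave P under 0.05 for 1 of the 8 genes before adjustment and for 0 after it. Over all gene names the shares were 18.5% and 0.0466% at 21 days and 7.76% and 0% at 28 days. The 6 gene names with an adjusted p under 0.05 at 21 days in limma became 120 without W_Res replicate 1, 109 without W_Res replicate 3 and 0 to 4 without any other library.

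The levels of APOA1 and APOC3 went up and down together from piglet to piglet. With each group centred on its own mean, Pearson's r over the 12 libraries was 0.93 and Spearman's rho 0.94 (exact permutation p = 0.000772 over 1296 arrangements for both, the smallest they can give, adjusted p = 0.0216 over 28 pairs of genes). Without the 2 libraries farthest from the median of APOA1, PW_Con replicates 3 and 2, r was 0.93. It was the only pair of the 28 with an adjusted p under 0.05. Among the 28 pairs, r ran from -0.66 (CD36 and DGAT1) to 0.93, and 6 had an unadjusted exact p under 0.05. DGAT1 followed APOC3 with r = 0.87 (rho 0.84, exact permutation p = 0.00772 and 0.0147, adjusted p = 0.108 and 0.103; r = 0.77 without W_Con replicate 1 and PW_Res replicate 1). APOA1 and APOC3 are neighbours on the chromosome, and reads that could belong to both were not examined here.

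**Figure D4:**
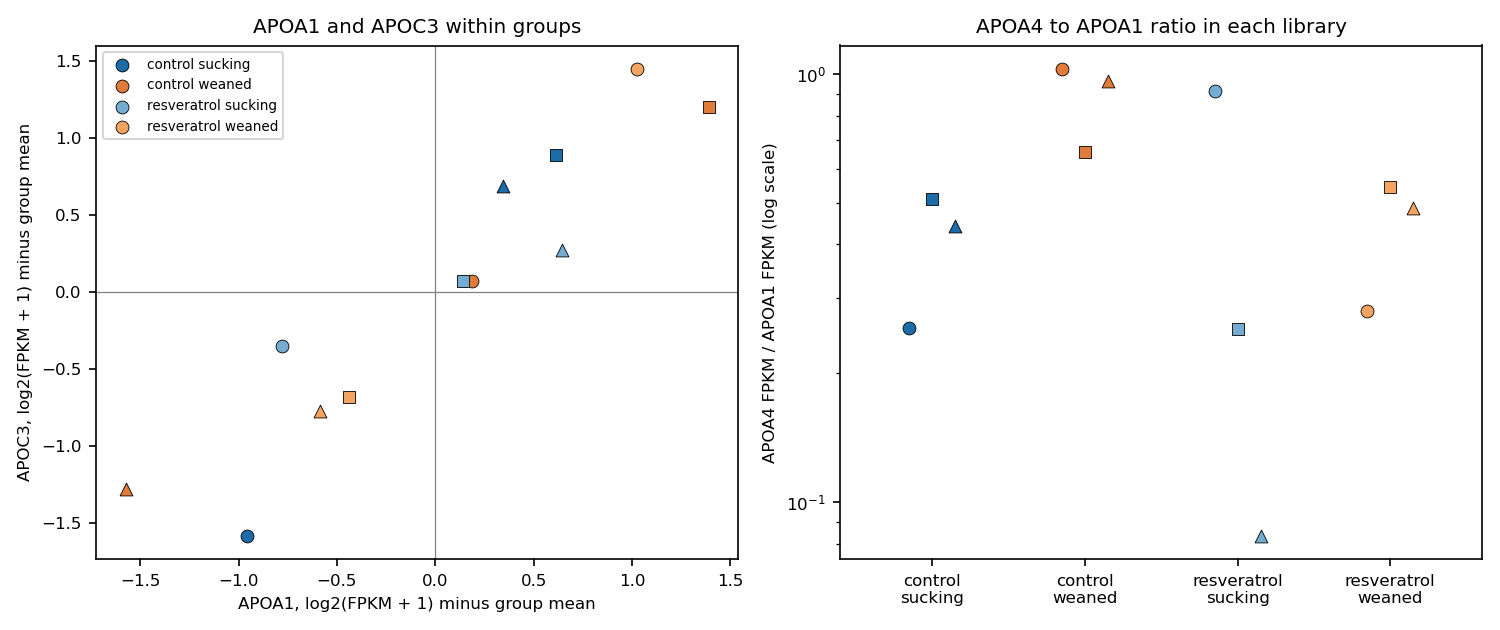
Left, APOC3 against APOA1 as log2(FPKM + 1) minus the group mean, 1 point per library, with Pearson's r of 0.93. Right, the ratio of APOA4 to APOA1 FPKM per library on a log axis; the PW_Con libraries (0.658 to 1.03) lie above the W_Con libraries (0.255 to 0.511). Circles, squares and triangles are replicates 1, 2 and 3.

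For APOA4, the third gene of the cluster, r with APOA1 was 0.59 (rho 0.58, exact permutation p = 0.114 and 0.107, adjusted p = 0.267 and 0.254, r = 0.32 without PW_Con replicates 3 and 2). With APOC3 it was 0.73 (rho 0.75, exact permutation p = 0.0293 and 0.0216, adjusted p = 0.155 and 0.121, r = 0.43 without W_Con replicate 1 and PW_Con replicate 3). Differences between these correlations were not tested. The ratio of APOA4 to APOA1 came to 0.255, 0.511 and 0.441 in W_Con and 1.03, 0.658 and 0.962 in PW_Con, so that the groups did not overlap. In resveratrol litters it was 0.912, 0.254 and 0.0834 in sucking piglets and 0.280, 0.546 and 0.488 in weaned piglets, and they overlapped. Over both litter sets the mean log2 ratio was 0.91 higher in weaned piglets, which the exact permutation test did not separate from the spread (two-sided p = 0.115, adjusted p = 0.46 over 4 ratios). The ratio of APOC3 to APOA1 stayed between 0.0560 and 0.133 in all 12 libraries.

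Other genes of the pathway were taken from 5 lists written without regard to how they moved, although earlier results of these data were known. Over all gene names the standard was met in either direction by 3.1% for weaning in control litters, 4.94% in resveratrol litters, 1.42% over both, 4.77% and 1.55% for resveratrol at 21 and 28 days, and 7.76% for the difference between litter sets. Added over the 6 comparisons, that is 3033 of 77316 values (3.92%). The 6 comparisons are made from the same 4 group means. The values of a gene are therefore not independent, and 1 gene can count several times in the shares below. Of 16 genes for uptake and activation of fatty acids and cholesterol, 12 were tested, and 4 of their 72 values (5.56%) met the standard. ACSL3, an acyl-CoA synthetase, was lower in weaned piglets of control litters (-1.81, adjusted p = 0.138) and over both litter sets (-1.15, adjusted p = 0.148). CAV1, which coats caveolae, was lower in weaned piglets of resveratrol litters (-1.39, adjusted p = 0.160). In that comparison 5 of the 6 smooth muscle markers tested were also lower past the standard, and their part in CAV1 was not tested. The fatty acid transporter SLC27A1, with group means of only 0.587 to 1.82 FPKM, had a difference between litter sets of -1.19 (adjusted p = 0.251). No other gene of this list met the standard in any of the 6 comparisons, and its median in control litters was -0.17 against -0.01 over all gene names.

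Of 15 genes of triglyceride and cholesteryl ester synthesis, 11 were tested, and 2 of their 66 values (3.03%) met the standard, a share near that of all gene names. MOGAT1, a monoacylglycerol acyltransferase, was lower in weaned piglets of control litters (-1.30, adjusted p = 0.183). GPAT3, which starts glycerolipid synthesis, was higher in resveratrol litters at 28 days (1.04, adjusted p = 0.616). In lipoprotein assembly and secretion, 10 of 17 genes were tested, and 11 of their 60 values (18.3%) met the standard. In control litters 9 of the 10 had an estimate below 0 (median -0.30), as had 51.6% of all gene names. SEC23A, a coat protein of the vesicles that leave the endoplasmic reticulum, was lower in weaned piglets there (-1.18, adjusted p = 0.0950), with a difference between litter sets of 1.30. APOE, a ligand for the uptake of lipoprotein remnants, was higher in weaned piglets of control litters (1.23, adjusted p = 0.200), lower in resveratrol litters at 28 days (-1.02, adjusted p = 0.609) and differed between litter sets by -1.52. APOBEC1, the enzyme that edits APOB mRNA, was higher in weaned piglets of resveratrol litters (1.62, adjusted p = 0.135), lower in those litters at 21 days (-1.04, adjusted p = 0.223) and differed between litter sets by 1.74. APOC2, the activator of lipoprotein lipase, had group means of 0.0744 to 2.68 FPKM and was lower after weaning in resveratrol litters (-1.04, adjusted p = 0.207) and higher in them at 21 days (1.28, adjusted p = 0.138). The lipid droplet protein CIDEB differed between litter sets by 1.26 (adjusted p = 0.305).

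Of the lipid droplet and lipolysis genes (8 of 14 tested), 7 of 48 values (14.6%) met the standard, and 1 gene of the 5 lists had an adjusted p under 0.05. ABHD5, the co-activator of the main triglyceride lipase, was lower in weaned piglets over both litter sets (-1.01, standard error 0.16, adjusted p = 0.0477 from limma). Its estimate stayed between -1.13 and -0.91 in the 23 alternatives run, and its adjusted p ranged from 0.0315 to 0.272 and was not under 0.05 in 15 of them. Its group means were 12.4 FPKM in W_Con, 5.74 in PW_Con, 11.7 in W_Res and 5.22 in PW_Res, and it was at -0.99 in control litters (adjusted p = 0.0950) and -1.04 in resveratrol litters (adjusted p = 0.121). MGLL, the monoglyceride lipase, was lower over both litter sets (-1.06, adjusted p = 0.130) and in resveratrol litters (-1.99, adjusted p = 0.121), higher in those litters at 21 days (1.41, adjusted p = 0.139), and differed between litter sets by -1.86. Its level was highest in W_Res, at a mean of 9.38 FPKM, the group with the highest smooth muscle markers. CIDEC, another droplet protein, differed between litter sets by 1.35 (adjusted p = 0.274). Among 11 of 16 regulators tested, 3 of 66 values (4.55%) met the standard, all of PPARG, a nuclear receptor for lipids. It was higher in weaned piglets of resveratrol litters (1.62, adjusted p = 0.135) and in resveratrol litters at 28 days (1.42, adjusted p = 0.466), and differed between litter sets by 1.63 (adjusted p = 0.286), with means of 2.35 to 9.25 FPKM.

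The labelled tissue was checked against 11 marker lists. VIL1, a defining gene of the brush border, was at 296 to 1062 FPKM. Liver also makes APOA1, APOC3 and FABP1. Summed hepatocyte markers (6 of 7 in the table) were at 1.73 to 12.2 FPKM, and albumin was at most 2.01 FPKM. Pancreatic acinar markers (3 of 7) summed to at most 4.55 FPKM, macrophage markers (3 of 5) to 13.1 to 30.2, endothelial markers (3 of 5) to 18.0 to 60.4, adipocyte markers (4 of 6, of which CIDEC is also in a pathway list) to 23.2 to 79.1 and lymphocyte markers (8 of 8) to 194 to 366 FPKM. Crypt and cell division markers (7 of 8) ranged from 231 to 1377 FPKM. The ranges of these 7 lists overlapped between W_Con and PW_Con and between W_Con and W_Res. Endothelial sums were at 37.5 to 60.4 FPKM in W_Res and, without overlap, at 19.7 to 29.2 FPKM in PW_Res, and KDR (-1.01) of that list was past the standard. At 28 days, macrophage sums (19.4 to 27.5 FPKM in PW_Con and 13.1 to 14.4 in PW_Res), adipocyte sums (24.7 to 35.6 and 37.8 to 51.1) and hepatocyte sums (1.73 to 2.32 and 2.48 to 12.2) did not overlap. Of all gene names, 11.8% were lower without overlap at that age. Only 1 adipocyte marker, the droplet gene CIDEC, and 2 hepatocyte markers passed the filter. SERPINA1 alone gave 10.8 of the 12.2 FPKM of the hepatocyte sum in PW_Res replicate 2. These sums therefore do not show the content of fat or liver cells. The part of these markers in the results was not tested.

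By a fixed rule, the genes whose pattern was nearest to that of the 8 were those with the highest median Pearson's r over them, among the 6295 other gene names that averaged 5 FPKM or more. Across all libraries these were ARFGAP3 (median r 0.73), HADHB, ACSL3, PRKAR1A and LEAP2 (0.72 for the last). With each group centred on its mean they were TMEM181 (listed as ENSSSCG00000024876, median r 0.74), SLC6A6 (ENSSSCG00000011600), MFN2, ABHD6 and NME6 (0.68 for the last). The first 5 share the difference between groups, and all of them share libraries and depth with the 8 genes, so that these values are a description.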

How the data were processed

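Poly(A) RNA of 12 jejunum samples was sequenced as paired ends. Per the labels and the study's methods, the authors aligned reads to the pig genome and deposited FPKM per locus from StringTie (1.3.0) and Ballgown. The aligner is TopHat in the methods and HISAT2 (2.0) with Bowtie (0.12.2) in the submitters' processing notes, which name the build Sscrofa10.2 and also mm8. Counts were not used here, and the depth per gene is unknown. Scaling beyond FPKM is not given in the sources used here. Unnamed loci (17650 of 41264, 42.8%) were not used, and loci with the same gene name were summed. Loci that overlap, or near-identical copies of a gene, may share reads.

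limma 3.58.1 (R 4.3.3) was applied to log2(FPKM + 1), using lmFit, contrasts.fit and eBayes with a trend in 1 fit of 4 group means over 12 libraries, for 12886 gene names with a mean of at least 0.5 FPKM. All 8 genes passed that filter. This scale understates changes of low genes such as CD36. P-values were adjusted by Benjamini-Hochberg over all gene names tested and measure the spread between piglets within groups, pooled over the 4 groups of the fit and moderated across genes. Exact tests permuted ages within litter sets, and correlations permuted libraries within groups. On simulated data for weaning in control litters (12886 genes), 196 of 200 genes changed by a log2 fold change of 2 (98%) met the standard, and 4.90% of the others had P under 0.05. The noise was independent and normal around 1 mean for all groups, so that this last share followed from the setup. In the real data it was 15.3%. The changed genes were drawn from abundant genes, which left out CD36. The 98% is a share over genes of differing spread, and APOA1, APOA4 and APOC3 had standard errors of 0.73, 0.76 and 0.79.

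The genes described, the pathway and marker lists and the tests were chosen with earlier results of these data known. The genes named were all 8, the pathway list genes past the standard (at most 5 per list and comparison), and the 5 nearest patterns on each scale. Of the marker genes only some were named, and the smooth muscle markers past the standard were counted without names. Lists were matched by symbol or by an Ensembl identifier that the reference gene table pairs with a symbol. Tried instead, 1 at a time, were quantile normalization, median-of-ratios rescaling, filters of 5 FPKM or none, a pseudocount of 0.1, eBayes without trend, a block for the replicate number, a fit of only the libraries compared, a Ballgown-type linear model, the highest locus in place of the sum, and leaving out each library. Covariates of distal and of smooth muscle markers were added after the data were seen. Promoter motifs were not examined.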

Additional observations from a re-analysis of the deposited data

Results flagged for a closer look

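For 3 of the 8 genes the effect of weaning differed between control and resveratrol litters in limma at an unadjusted P under 0.05. The share over all gene names was 13.7%, and no adjusted p was under 0.05. The difference in log2 fold change was 2.02 for MTTP, 2.30 for FABP1 and -0.85 for CD36. With the smooth muscle covariate it was 1.34, 1.87 and -0.39, and P was over 0.05 for all 3. MTTP and FABP1 were lower after weaning in 3 of 3 weaned control libraries against every sucking control library, and their resveratrol groups overlapped. In control litters 12.4% of all gene names were lower without overlap. For CD36 the control groups overlapped and the resveratrol groups did not, where 17.7% of gene names were lower without overlap.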

How the results depend on the processing

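In control litters FABP1, FABP2 and MTTP met the standard in all 24 alternatives run. Of the 5 genes past it there, 3 met it with no filter, with quantile normalization, with only the libraries compared and with the Ballgown-type model, and 3 to 5 with a library left out. APOC3 alone missed it with median-of-ratios rescaling, a minimum of 5 FPKM or the smooth muscle covariate. In resveratrol litters 0 became 0 to 1 with a library left out. Over both litter sets the count of 3 became 1 with the Ballgown-type model, under which APOA1, APOC3 and FABP2 all missed the standard and MTTP met it, and 1 to 4 with a library left out. It became 2 with no filter, median-of-ratios rescaling or quantile normalization, where APOA1 missed it, and 2 with the smooth muscle covariate, where APOA1 and APOC3 missed it and MTTP met it. At 21 days the count of 1 became 0 with the Ballgown-type model, 0 with the smooth muscle covariate, 2 with the distal covariate and 1 to 2 with a library left out. At 28 days 0 became 1 with a pseudocount of 0.1 and 0 to 1 with a library left out. For the difference between litter sets, 2 became 1 with no filter, 1 with quantile normalization, 0 with the Ballgown-type model, 0 with the smooth muscle covariate and 1 to 4 with a library left out (FABP1 missed the standard in each of the first 2, and MTTP and FABP1 in the next 2). It became 3 with median-of-ratios rescaling and the distal covariate, where FABP2 joined, and 3 with a pseudocount of 0.1, where CD36 joined. Over all gene names, the number past the standard moved by over 1.5 times when 1 library was left out in 4 comparisons: from 636 to 1101 (W_Res replicate 1) and 385 (W_Res replicate 2) for weaning in resveratrol litters, from 615 to 1017, 407 and 948 (W_Res replicates 1, 2 and 3) at 21 days, from 200 to 358 (PW_Res replicate 1) at 28 days and from 1000 to 633 (W_Con replicate 3) for the difference. With a pseudocount of 0.1 it rose from 399 to 783 for weaning in control litters, 636 to 1237 in resveratrol litters, 183 to 591 over both, 615 to 1185 at 21 days and 200 to 456 at 28 days. With the Ballgown-type model it fell from 636 to 211, 615 to 311, 200 to 124 and 1000 to 291 (resveratrol litters, 21 days, 28 days and the difference), and with the smooth muscle covariate from 636 to 363 and 1000 to 449 (resveratrol litters and the difference). Quantile normalization gave 410 in resveratrol litters, the distal covariate 599 in control litters and 277 over both, and a minimum of 5 FPKM, with fewer gene names tested, 112 to 364. For weaning in control litters, 0 adjusted calls became 44 with that minimum and 39 with the Ballgown-type model, and 0 of the 8 genes were among them. In limma, 0 adjusted calls became 110 and 130 without W_Res replicates 1 and 3 for weaning in resveratrol litters. The cause was not tested, except that a library left out gives fewer samples.

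Changes of sign concerned only estimates that did not meet the standard in the fit of all libraries. With the Ballgown-type model, weaning in resveratrol litters was at -0.36 for APOA4, -0.64 for MTTP, -0.80 for FABP1, 0.15 for CD36 and -0.0060 for DGAT1, and over both litter sets at 0.26 for CD36. The same model gave 0.045 for APOA1, 0.011 for APOC3 and -0.18 for CD36 at 21 days, and -0.20 for DGAT1 as the difference between litter sets. The smooth muscle covariate gave -0.43 for MTTP and -0.18 for FABP1 in resveratrol litters, 0.061 for CD36 over both, -0.22 for CD36 at 21 days, 0.048 for APOA4 at 28 days and -0.15 for DGAT1 as the difference. Quantile normalization gave 0.073 for CD36 over both litter sets, 0.39 for APOA1 at 21 days, 0.018 for APOA4 at 28 days and -0.027 for DGAT1 as the difference. Median-of-ratios rescaling gave 0.087 for APOA4 at 28 days, and the distal covariate 0.00095 for APOA1 at 21 days.

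With each library left out, weaning in control litters ranged from -1.35 to 0.14 for APOA4. In resveratrol litters it ranged from -0.51 to 0.50 for APOA4, -0.090 to 0.42 for MTTP, -0.35 to 0.67 for FABP1 and -1.07 to 0.044 for FABP2, and over both from -0.67 to 0.076 for APOA4 and -0.21 to 0.0083 for CD36. At 21 days the ranges were -0.55 to 0.32 for APOA1, -0.98 to 0.26 for APOC3 and -0.031 to 0.41 for CD36, and at 28 days -0.73 to 0.48 for APOA4 and -0.35 to 0.97 for APOC3. The difference between litter sets ranged from -0.13 to 1.36 for APOA4, -0.17 to 1.35 for APOC3 and -0.071 to 0.30 for DGAT1.

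The sources used here do not say that a replicate number marks a litter, although control piglets of both ages may share litters. The deviations of samples with the same number from the group means correlated at -0.26 to 0.30, and those with other numbers at -0.27 to 0.36. With a replicate block, 4 of the 8 genes met the standard in control litters and 2 over both litter sets, and 0, 1, 0 and 2 genes met it in the other comparisons, as without the block. A minimum of 5 FPKM left CD36 out. The fit of only the libraries compared could not be made for the mean effect and the difference, which use all 12. With 3 piglets a group and no counts, small differences may have been missed, and the simulation tested only a log2 fold change of 2.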
